A study of Mus musculus with 6 samples.

Results

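The genes of purine breakdown and urate oxidation were followed in mouse liver RNA. The 7 genes, Urad, Uox, Urah, Xdh, Pnp, Gda and Ada, were taken by symbol and read by gene identifier from count files of 47729 genes. The set was chosen by the Urad values of this comparison, because Urad was lower in the Atoh8 knockdown, so the difference of Urad is given as a description, and the differences of the other 6 genes come from the same comparison and are no independent evidence.

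The Atoh8 knockdown samples were the 3 liver RNA samples labelled as ATOH8 knockdown, which the series design calls shAtoh8, and they were set against 3 liver samples labelled WT, which the design calls shNC. Atoh8 is a transcription factor of the basic helix-loop-helix class. The mice of both groups were C57BL/6 and had eaten 0.1% DDC for 17 days, a feeding that causes cholestatic liver injury, so neither group shows the pathway on a normal diet. Total RNA came from whole removed livers although the cell type is labelled hepatocyte, and the labels name neither the vector nor the age, sex or number of animals. Nothing in them tells if replicates were separate animals, and the p-values cover the spread of these 6 samples alone, which may be technical.

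Purines are broken down along branches that lead to urate. Adenosine deaminase (Ada) turns adenosine into inosine, purine nucleoside phosphorylase (Pnp) splits inosine and guanosine into sugar and base, guanine deaminase (Gda) makes xanthine from guanine, and xanthine dehydrogenase (Xdh) oxidises hypoxanthine and xanthine to urate. Mouse liver carries the pathway on, unlike human liver, where the Uox gene is inactive. Urate oxidase (Uox) oxidises urate in peroxisomes, hydroxyisourate hydrolase (Urah) opens the ring of its product, and the decarboxylase encoded by Urad finishes the conversion to allantoin.

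The last 3 steps are encoded at 3 separate loci of GRCm38. Urad lies on the minus strand at chr5:147314984-147322440, with 2 exons in GENCODE M21, Uox on the plus strand at chr3:146570426-146632305, and Urah on the plus strand at chr7:140835018-140837966. The RefSeq promoter windows of these genes (GRCm38.p6, 250 bases before to 50 bases after the start of transcription) are shown because the knocked-down factor belongs to a class that is known to bind E-boxes. The letters CANNTG, which read the same on both strands, are in capitals, and CAGCTG is one form of CANNTG. The windows are chr5:147322391-147322690 (minus strand) for Urad, chr3:146596899-146597198 (plus strand) for Uox and chr7:140834888-140835187 (plus strand) for the first of 2 Urah windows.
Urad: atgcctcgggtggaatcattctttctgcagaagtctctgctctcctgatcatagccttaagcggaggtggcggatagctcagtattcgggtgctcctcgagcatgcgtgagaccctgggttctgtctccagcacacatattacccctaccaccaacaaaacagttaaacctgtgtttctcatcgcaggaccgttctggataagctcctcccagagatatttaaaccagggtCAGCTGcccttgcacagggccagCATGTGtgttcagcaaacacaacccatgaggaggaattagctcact
Uox: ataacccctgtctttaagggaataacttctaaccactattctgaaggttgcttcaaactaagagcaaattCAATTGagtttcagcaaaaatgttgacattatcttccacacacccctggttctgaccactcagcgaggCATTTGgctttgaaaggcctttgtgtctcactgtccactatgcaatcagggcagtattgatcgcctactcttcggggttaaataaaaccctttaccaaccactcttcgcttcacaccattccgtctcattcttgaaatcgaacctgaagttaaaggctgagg
Urah: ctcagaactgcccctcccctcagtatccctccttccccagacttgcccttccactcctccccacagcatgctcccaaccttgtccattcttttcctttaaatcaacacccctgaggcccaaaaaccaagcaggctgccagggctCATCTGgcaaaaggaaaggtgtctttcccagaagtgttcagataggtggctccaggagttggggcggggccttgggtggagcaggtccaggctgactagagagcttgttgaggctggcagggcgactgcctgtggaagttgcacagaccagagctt

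The Urad window held 2 CANNTG matches, 1 of them CAGCTG, the Uox window held 2 and the Urah window 1. Of the other members, the Ada window held 2, the Pnp and Gda windows 1 each, and Xdh is named only. At least 1 CANNTG was present in 72.3% of 32841 mouse promoter windows of the same length, at least 2 in 39.6%, and CAGCTG in 16.3%. These matches describe the letters, and binding was not measured.

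Depth was close between the libraries, at 31912058 to 37969644 reads in genes, and WT replicate 1 stood apart. On log2 CPM, which scales reads by library size, its Pearson correlation over genes with WT replicates 2 and 3 was 0.916 and 0.907, against 0.984 between those, and mitochondrially encoded genes took 2.44% of its reads, against 3.48% to 6.94% in the other 5 libraries. Atoh8 stood at 10.2, 9.83 and 5.64 CPM in knockdown replicates 1 to 3, against 63.8, 16.8 and 16.4 CPM in WT replicates 1 to 3, so the groups did not overlap. Its log2 fold change was -1.92 (SE 0.58, edgeR adjusted p = 0.197) with all libraries and -0.95 (SE 0.23, edgeR adjusted p = 0.0115) without WT replicate 1. The 7 genes, and the calls of the other lists, are therefore given also without WT replicate 1. The 8 hepatocyte markers summed to 98840 to 112200 CPM in knockdown livers and 102000 to 138200 CPM in WT livers. Alb alone gave 77150 to 103000 CPM per library, so the sum cannot tell hepatocytes from whole liver.

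Per transcript length, the order of the 7 genes was the same in both groups at its ends and differed in its middle. On the authors' FPKM scale, which divides reads by transcript length and library size, Uox had the highest level of the 7 in all 6 libraries, at 1155 ± 204 FPKM in knockdown and 1974 ± 531 FPKM in WT livers (SD, n = 3 each). It ranked between position 39 and position 83 of 20611 genes with any signal. Urah came next in all 6 libraries, at 161 ± 37.7 FPKM in knockdown and 217 ± 65.0 FPKM in WT livers. Xdh and Pnp lay close together, at 62.1 ± 6.09 and 61.1 ± 3.84 FPKM in knockdown livers and at 67.2 ± 9.93 and 80.3 ± 8.01 FPKM in WT livers, and these neighbours lay within each other's spread in the knockdown group. Urad averaged 26.6 ± 3.38 FPKM in knockdown and 76.5 ± 20.1 FPKM in WT livers, where it lay within the spread of Xdh and Pnp. Gda and Ada were the lowest of the 7 in every library, with Ada at 0.822 ± 0.228 FPKM in knockdown and 0.607 ± 0.0755 FPKM in WT livers. Urad held position 5 in all 3 knockdown libraries, against position 3 or 4 in the WT libraries.

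**Figure D1:**
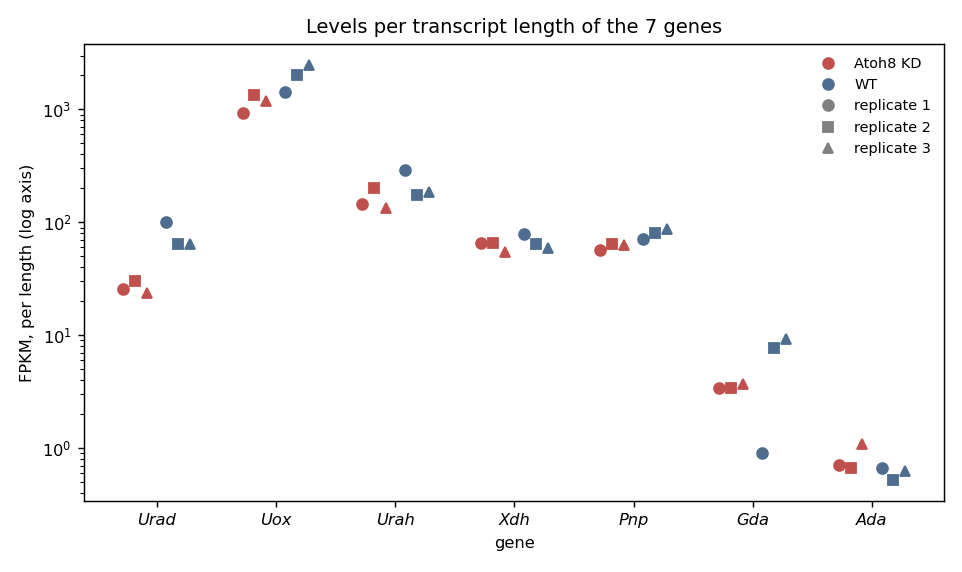
FPKM per library (log axis, per transcript length) of the 7 genes, with Atoh8 knockdown left of WT for each gene and a marker shape per replicate. Uox lies highest and Ada lowest in every library, Urad is lower in all 3 knockdown libraries (23.5 to 30.2 FPKM) than in any WT library (64.9 to 99.7 FPKM), and Gda in WT replicate 1 lies at 0.898 FPKM.

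Of the urate-to-allantoin enzymes, Urad had the largest log2 fold change. It stood at 18.9, 23.4 and 17.3 CPM in knockdown replicates 1 to 3, against 78.6, 49.9 and 55.6 CPM in WT replicates 1 to 3. All 3 knockdown libraries lay below every WT library, on the CPM and on the FPKM scale, and the reads behind these values were 740 to 897 per knockdown library and 1711 to 2373 per WT library. The fitted log2 fold change was -1.63 (SE 0.25), a level 3.09-fold lower in knockdown livers. Urad was 1 of 17 genes that edgeR called lower among 13767 tested, which is 0.123% of them, and this call is what chose the gene set. At that threshold the last gene inside was Gde1 (log2 fold change -1.49, edgeR adjusted p = 0.0428) and the first outside was Rhbdd2 (-1.24, edgeR adjusted p = 0.0502). With WT replicate 1 left out, the library of highest Urad level, the log2 fold change was -1.40 (SE 0.15). Leaving out any one of the other 5 libraries ended the call, with log2 fold changes from -1.76 to -1.49 and edgeR adjusted p from 0.0993 to 0.242. Over all genes, those 5 fits called 1 gene lower without WT replicate 3 and 0 lower in each other case. The lost call is therefore not particular to Urad. Its value held its direction and size, while its call depended on having all 3 libraries of each group or on leaving out WT replicate 1.

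Uox, which acts first on urate, stood at 739, 1075 and 984 CPM in knockdown replicates 1 to 3, against 1060, 1659 and 1953 CPM in WT replicates 1 to 3. The groups overlapped on this scale only through WT replicate 1, which lay just under knockdown replicate 2. On the FPKM scale they did not overlap, with knockdown livers at 939, 1345 and 1179 FPKM and WT livers at 1426, 2012 and 2486 FPKM. The log2 fold change of -0.74 (SE 0.29) did not pass over all genes (edgeR adjusted p = 0.296). Uox passed as lower once WT replicate 1 was left out, with a log2 fold change of -0.94 (SE 0.19, edgeR adjusted p = 0.00509). It did not pass with any other single library left out (edgeR adjusted p from 0.447 to 0.815). Those fits called 0 or 1 gene lower over all genes.

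Urah, whose product Urad acts on, stood at 59.4, 86.5 and 51.9 CPM in knockdown replicates 1 to 3, against 126, 73.5 and 86.9 CPM in WT replicates 1 to 3. The groups overlapped, because knockdown replicate 2 was above WT replicate 2, and the log2 fold change of -0.54 (SE 0.29) did not pass (edgeR adjusted p = 0.451). With WT replicate 1 left out, the log2 fold change was -0.27 (SE 0.20, edgeR adjusted p = 0.323). In GENCODE M21, 12.4% of the exonic bases of Urah are shared with C330022C24Rik on the opposite strand. That gene had 15 to 32 reads per library against 2226 to 3815 for Urah, and the strand setting of the counting is not known here.

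The ratio of Urah to Urad, taken within each library on the FPKM scale, did not overlap between the groups. It was 5.6, 6.74 and 5.65 in knockdown replicates 1 to 3, against 2.93, 2.71 and 2.84 in WT replicates 1 to 3, and here WT replicate 1 lay with the other WT libraries. The ratio of Uox to Urad was 36.2, 44.5 and 50.1 in knockdown livers, against 14.3, 31.0 and 38.3 in WT livers, and overlapped. Since both ratios hold Urad, whose fall chose the genes, they are descriptions with no test.

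**Figure D2:**
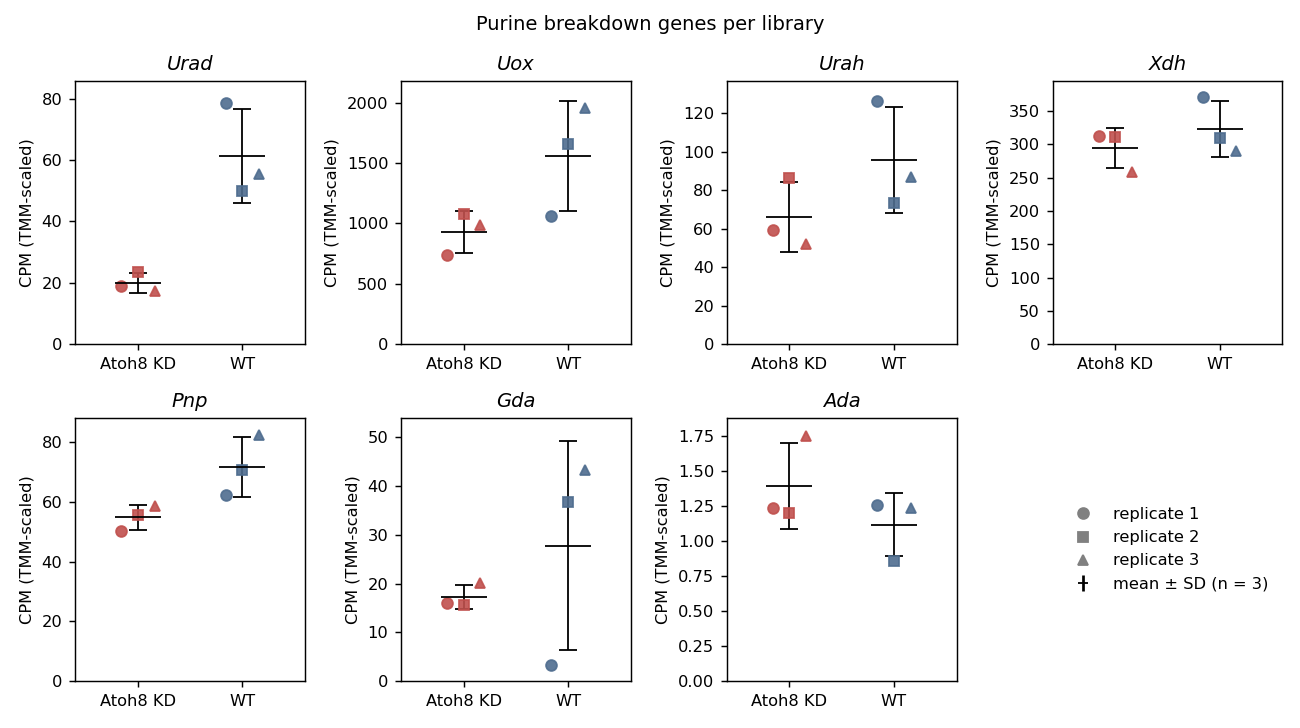
Level in CPM (linear axes from 0) of each of the 7 genes in every library, Atoh8 knockdown left and WT right, with a marker shape per replicate and the mean ± SD (n = 3) in black. Urad and Pnp show no overlap of the groups, WT replicate 1 is the highest library for Urad, Urah and Xdh, and it is the lowest for Gda at 3.25 CPM.

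The upstream steps differed less than Urad, or varied more within WT. Their genes lie at chr17:73883895-73950196 (Xdh, minus strand), chr19:21391307-21473445 (Gda, minus strand) and chr2:163726584-163750239 (Ada, minus strand) of GRCm38, with Pnp on chromosome 14. Xdh, the enzyme that makes urate, stood at 313, 312 and 259 CPM in knockdown replicates 1 to 3, against 371, 310 and 290 CPM in WT replicates 1 to 3. The groups overlapped, and the log2 fold change was -0.14 (SE 0.19, edgeR adjusted p = 0.791), or -0.01 (SE 0.15) without WT replicate 1. The level of Xdh thus differed by less than the spread between libraries.

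Pnp stood at 50.3, 55.6 and 58.6 CPM in knockdown replicates 1 to 3, against 62.3, 70.6 and 82.4 CPM in WT replicates 1 to 3. The groups did not overlap on the CPM or the FPKM scale, but the log2 fold change of -0.39 (SE 0.18) did not pass with all libraries (edgeR adjusted p = 0.397). It passed as lower with WT replicate 1 left out, at -0.46 (SE 0.13, edgeR adjusted p = 0.0236). Leaving out any other single library gave no call of Pnp (edgeR adjusted p from 0.546 to 0.911). Those fits called 0 or 1 gene lower over all genes. Among the members, 2 of 7 on the CPM scale (Urad and Pnp) and 3 of 7 on the FPKM scale (these and Uox) were lower in every knockdown library than in any WT library, and 0 were higher in every one. Over all genes tested, 10% lay below in this way and 13% above on the CPM scale, and 11.3% lay below on the FPKM scale. The identifier that the authors' table calls Pnp, ENSMUSG00000021871, carries another name in GENCODE M21 at chr14:50944517-50963136, and its paralog Pnp2 lies in the same locus with 21 to 62 reads per library, so the split of reads between these genes is uncertain.

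The value of Gda depended on which WT libraries were used. The gene stood at 16.02, 15.6 and 20.2 CPM in knockdown replicates 1 to 3, against 3.25, 36.7 and 43.2 CPM in WT replicates 1 to 3. The knockdown libraries therefore lay above WT replicate 1 and below both other WT libraries. The log2 fold change of -0.68 had an SE of 0.75 (edgeR adjusted p = 0.730). Once WT replicate 1 was left out, Gda passed as lower with a log2 fold change of -1.19 (SE 0.16, edgeR adjusted p = 0.000644). Other libraries moved the value too, to -0.43 without WT replicate 2 and -0.21 without WT replicate 3, and neither passed (edgeR adjusted p = 0.906 and 0.965). Over all genes those fits called 0 and 1 gene lower.

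Ada, the deaminase that acts on adenosine, was barely expressed. It had 51, 46 and 75 reads in knockdown replicates 1 to 3, against 38, 30 and 38 reads in WT replicates 1 to 3, which is 1.24, 1.20 and 1.75 CPM in knockdown livers against 1.26, 0.860 and 1.24 CPM in WT livers. The groups overlapped, and the log2 fold change of 0.32 (SE 0.36, edgeR adjusted p = 0.733) was within the spread between libraries, as was that of 0.44 (SE 0.39, edgeR adjusted p = 0.431) without WT replicate 1.

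All 7 members passed the filter on low counts. With all libraries 1 of 7, Urad, was called lower by edgeR and 0 higher, beside 0.864% of all genes called in either direction (0.123% lower and 0.741% higher), and 2 of 7 were lower at an unadjusted p under 0.05, beside 5.4% of all genes. DESeq2 called 1 lower, beside 1.58% of the same genes, and limma-voom with library weights 4, beside 18.2%. Without WT replicate 1 the members called lower were Urad, Uox, Pnp and Gda, 4 of 7, while 16.1% of all 14222 genes tested were called lower and 16.5% higher in that fit. The knockdown-to-WT difference against WT replicates 2 and 3 also followed GC content (Spearman 0.355, a description over 13730 genes that share these libraries). Against all WT libraries the same correlation was -0.019. Of the 4 members called without WT replicate 1, Uox and Gda have longest transcripts of 43.1% and 42.7% GC, below the median of 49.5%. Those of Urad and of the identifier counted as Pnp, at 57.2% and 51.7%, are above it. The gene that GENCODE M21 itself names Pnp has 46.0%, below it. With an offset for GC content and transcript length, added after seeing the data, the fit without WT replicate 1 gave log2 fold changes of -1.45 for Urad, -0.70 for Uox, -0.42 for Pnp and -0.91 for Gda, each called lower beside 14.4% of all genes (edgeR adjusted p = 0.000133, 0.0201, 0.0184 and 0.00171). With all libraries 6 of 7 log2 fold changes were below 0, as were 54.7% over all genes tested, and their median was -0.54, beside -0.05 for all genes.

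**Figure D3:**
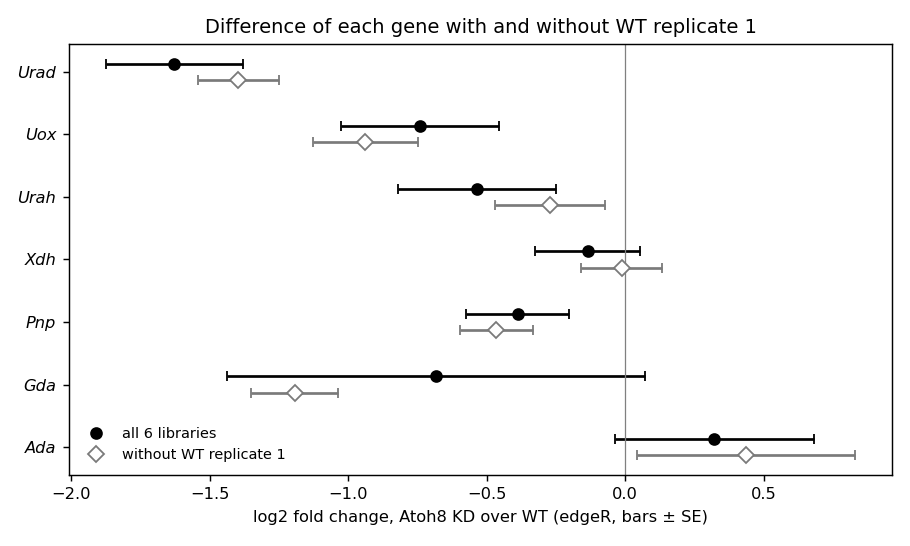
Log2 fold change of Atoh8 knockdown over WT for each of the 7 genes from edgeR (points, bars ± SE), with all 6 libraries (filled) and without WT replicate 1 (open). Urad lies lowest in both fits at -1.63 and -1.40, Gda lies at -0.68 with a wide bar in the fit of all 6 and at -1.19 with a narrow one in the other, and Xdh lies near 0 in both.

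In bulk liver RNA, fewer cells of a type and less RNA per cell cannot be told apart. The 8 hepatocyte markers had log2 fold changes below 0 in 8 of 8 cases, and their median was -0.40, with 0 called by edgeR (3 lower at an unadjusted p under 0.05, 1 by DESeq2, 3 by limma-voom). Without WT replicate 1 the median was -0.13, 5 of 8 were below 0 and 3 were called lower, Arg1, Cps1 and the transthyretin gene Ttr (edgeR adjusted p = 0.0251, 0.0468 and 0.0485). Arg1, an enzyme of the urea cycle, stood at 1387 ± 290 CPM in knockdown and 2750 ± 944 CPM in WT livers (SD, n = 3 each, edgeR adjusted p = 0.200), and Cps1, the first enzyme of that cycle, at 5870 ± 1486 CPM in knockdown and 10260 ± 1852 CPM in WT livers (edgeR adjusted p = 0.247). The 10 macrophage and Kupffer cell markers summed to 528 to 637 CPM in knockdown and 306 to 620 CPM in WT livers, the 7 endothelial markers to 122 to 172 CPM in knockdown and 131 to 157 CPM in WT livers, and 0 of either list were called by edgeR (3 and 0 higher at an unadjusted p under 0.05, 0 by DESeq2 and 9 and 1 by limma-voom). The macrophage log2 fold changes were above 0 in 10 of 10 cases, with a median of 0.49. In the fit without WT replicate 1, where 4 of the 7 purine breakdown genes were called lower, 8 of 10 macrophage markers were called higher, with a median of 0.80, and 1 of 7 endothelial markers, Cdh5. That fit called 16.5% of all genes tested higher and 16.1% lower, and limma-voom called 2576 of 13767 genes higher and 2512 lower. With all libraries Lyz2 and Cd5l, both of macrophages, had the smallest p of the macrophage list (log2 fold changes 0.79 and 0.68, edgeR adjusted p = 0.259 and 0.308), and the endothelial genes Cdh5 and Pecam1 those of the endothelial list (0.32 and 0.34, edgeR adjusted p = 0.613 and 0.630).

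Markers of stellate cells and fibroblasts summed to 217 to 350 CPM in knockdown and 118 to 194 CPM in WT livers, and cholangiocyte markers to 30.9 to 39.1 CPM in knockdown and 22.2 to 26.7 CPM in WT livers, so neither sum overlapped between the groups. The stellate cell sum leaned on collagen, with Col3a1 at 67.9 to 123 CPM in knockdown and 14.5 to 37.3 CPM in WT livers. Dcn, also abundant, overlapped, at 79.1 to 132 CPM in knockdown and 46.9 to 116 CPM in WT livers. Of 8 stellate cell and fibroblast markers edgeR called 1 higher, Acta2, which had 52, 36 and 47 reads in knockdown replicates 1 to 3 and 0 or 1 read in each WT library (edgeR adjusted p = 0.0282). Of this list 3 were higher at an unadjusted p under 0.05, 3 by DESeq2, and 4 higher and 1 lower by limma-voom. Over all genes, the fits without any one library other than WT replicate 1 called 0 to 20 higher. Each of them ended the Acta2 call (edgeR adjusted p = 0.07 to 0.204). Without WT replicate 1 it held, and 4 of 8 were called higher, Acta2, the collagen genes Col1a1 and Col3a1, and Pdgfrb (edgeR adjusted p = 0.000891, 0.000102, 0.00021 and 0.0011). Of all genes tested, 16.5% were called higher in that fit. The log2 fold changes of this list in it were above 0 in 5 of 8 cases. They were below 0 in 3, Lrat, Dcn and Rgs5 (-0.17, -0.17 and -0.80). Of 7 cholangiocyte markers 3 were tested and 0 called (1 higher at an unadjusted p under 0.05, 0 by DESeq2 and 2 by limma-voom), and the log2 fold change of Epcam was 1.00 (edgeR adjusted p = 0.465). The 8 lymphocyte markers summed to at most 0.706 CPM in any library, and Ly6g, of the 6 neutrophil markers, had no read. Of the neutrophil list only Csf3r was tested and it was not called (log2 fold change 0.73, edgeR adjusted p = 0.513, called higher by limma-voom and, without WT replicate 1, by edgeR at adjusted p = 0.036). Without that library 1 of the 3 cholangiocyte markers was called higher. Alb, Ttr, Col1a1, Col3a1, Pdgfrb, Lrat, Dcn and Rgs5 were named after their values were seen. The part of cell makeup in the purine breakdown values was not tested.

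The neighbouring steps of purine metabolism held no gene called by edgeR with all libraries, a fit that called 0.864% of all genes tested. At that share, lists this short would hold few or no called genes. Of 25 other purine catabolic enzymes 21 were tested and 0 called by edgeR in either direction (1 higher at an unadjusted p under 0.05, 0 by DESeq2, 3 higher by limma-voom), and their median log2 fold change was 0.16. The nucleotidase gene Nt5c3 stood at 26.4 ± 3.34 CPM in knockdown and 18.2 ± 3.62 CPM in WT livers (SD, n = 3 each, edgeR adjusted p = 0.336). Ahcy, which releases adenosine from S-adenosylhomocysteine, stood at 1125 ± 461 CPM in knockdown and 2505 ± 1780 CPM in WT livers (edgeR adjusted p = 0.373), with WT replicate 1 the highest library. Its log2 fold change was -1.16 with all libraries and -0.39 without that one. In the fit without WT replicate 1, 4 of the 21 were called higher and 0 lower, and Nt5c3 was not among them (edgeR adjusted p = 0.0722). That fit called 16.5% of all genes tested higher and 16.1% lower. For this and the following lists, the counts over all 13767 genes were 2576 higher and 2512 lower by limma-voom. They were 570 and 218 by DESeq2, and 1258 and 744 at an unadjusted edgeR p under 0.05. Of the untested enzymes Allc, the allantoicase gene that would act after Urad, was not tested because it had no read in any library.

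Purine salvage, which returns bases and nucleosides to nucleotides, had 11 genes tested and 0 called by edgeR (1 higher and 4 lower at an unadjusted p under 0.05, 1 higher and 1 lower by DESeq2, 1 higher and 6 lower by limma-voom). At that unadjusted threshold the share was 45.5%, beside 28.6% of the 7 purine breakdown genes and 14.5% of all genes tested. The median log2 fold change of the salvage genes was -0.34. The adenylate kinase gene Ak4 stood at 62.4 ± 11.0 CPM in knockdown and 103 ± 8.24 CPM in WT livers (SD, n = 3 each, edgeR adjusted p = 0.162). Ak1, another adenylate kinase gene, stood at 0.470 ± 0.289 CPM in knockdown and 0.0505 ± 0.0307 CPM in WT livers (edgeR adjusted p = 0.133) and rests on very few WT reads. Without WT replicate 1, 1 salvage gene was called higher, Ak1, and 4 lower, Ak4 among them (edgeR adjusted p = 0.0307 and 0.01). All 16 genes of de novo purine synthesis were tested and 0 called by edgeR (3 lower at an unadjusted p under 0.05, 0 by DESeq2, 1 higher and 3 lower by limma-voom), with a median of -0.09. Prps1l3, a member of the phosphoribosyl pyrophosphate synthetase family, stood at 19.0 ± 0.771 CPM in knockdown and 27.7 ± 3.56 CPM in WT livers (edgeR adjusted p = 0.255), and Pfas, an enzyme of the synthesis chain, at 9.57 ± 1.35 CPM in knockdown and 15.1 ± 3.77 CPM in WT livers (edgeR adjusted p = 0.297). When WT replicate 1 was left out, 1 synthesis gene was called higher and 2 lower, with Prps1l3 called and Pfas not (edgeR adjusted p = 0.005 and 0.0874). The salvage and synthesis counts of that fit stand beside 16.5% of all genes called higher and 16.1% lower.

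Of 22 urate and purine transporters 16 were tested and 0 called by edgeR (2 higher and 1 lower at an unadjusted p under 0.05, 0 by DESeq2, 2 higher and 2 lower by limma-voom), with a median log2 fold change of -0.03. Slc29a1, an equilibrative nucleoside transporter, stood at 81.9 ± 15.7 CPM in knockdown and 134 ± 32.03 CPM in WT livers (SD, n = 3 each, edgeR adjusted p = 0.240), and Slc29a3, which moves nucleosides out of lysosomes, at 8.22 ± 0.533 CPM in knockdown and 3.93 ± 2.35 CPM in WT livers (edgeR adjusted p = 0.298). With WT replicate 1 left out, 2 transporters were called higher, Slc29a3 among them (log2 fold change 1.68, edgeR adjusted p = 0.000791), and 2 lower, Slc29a1 among them (-0.48, edgeR adjusted p = 0.0417). The shares over all genes in that fit were 16.5% higher and 16.1% lower.

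Xdh needs a molybdenum cofactor, and Uox works beside catalase in the peroxisome. Of the molybdenum cofactor and molybdoenzyme genes 11 of 12 were tested and 0 called by edgeR (2 lower at an unadjusted p under 0.05, 1 lower by DESeq2, 1 higher and 4 lower by limma-voom), with a median log2 fold change of -0.32. Marc2, a mitochondrial molybdoenzyme matched by its identifier, stood at 256 ± 40.7 CPM in knockdown and 470 ± 104 CPM in WT livers (SD, n = 3 each, edgeR adjusted p = 0.151), and Mocs2, which encodes subunits of the molybdopterin synthase of this cofactor, at 53.2 ± 4.26 CPM in knockdown and 79.1 ± 19.9 CPM in WT livers (edgeR adjusted p = 0.309). Of the 12 genes of peroxisomal import and hydrogen peroxide removal 0 were called by edgeR (2 lower at an unadjusted p under 0.05, 0 by DESeq2, 4 lower by limma-voom), with a median of -0.27. The peroxisome assembly gene Pex10 stood at 4.35 ± 0.405 CPM in knockdown and 6.27 ± 0.504 CPM in WT livers (edgeR adjusted p = 0.342). Without WT replicate 1, 1 molybdenum gene was called higher and 3 lower, Marc2 and Mocs2 among these (edgeR adjusted p = 0.0103 and 0.0041), and 3 peroxisomal genes were called lower, Pex10 not among them (edgeR adjusted p = 0.124). Beside these counts, 16.5% of all genes were called higher and 16.1% lower in that fit.

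**Figure D4:**
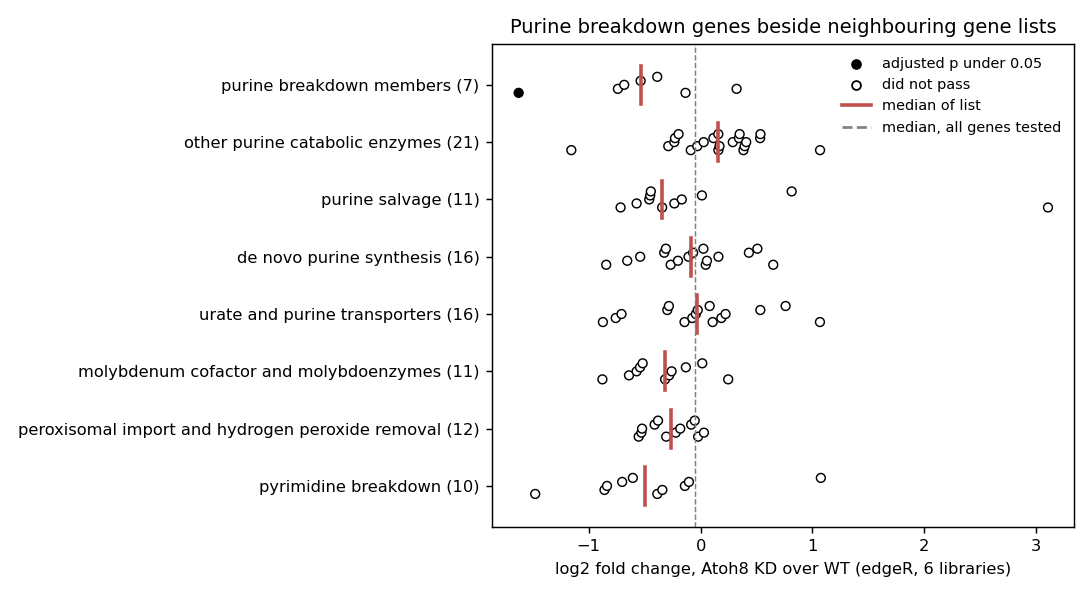
Log2 fold change of Atoh8 knockdown over WT (edgeR, 6 libraries) for each tested gene of the purine breakdown set and 7 neighbouring lists, with the number tested in brackets. Filled points passed an adjusted p under 0.05, which in these lists is Urad alone, beside 0.864% of all genes tested. Red bars are list medians (-0.54 for the purine breakdown set), and the dashed line is the median of all genes tested (-0.05).

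The genes whose profile over the 6 libraries was most like that of Urad were Gde1, Ppp5c, Cyb5a and Mrpl30. Their Pearson correlations with Urad on log2 CPM were 0.999, 0.998, 0.997 and 0.996 among 11161 genes compared, a description over 6 libraries that share the split into groups and the position of WT replicate 1. Gde1, the closest, stood at 33.01, 42.8 and 30.8 CPM in knockdown replicates 1 to 3, against 125, 81.3 and 94.1 CPM in WT replicates 1 to 3. Like Urad, it was highest in WT replicate 1 and, within the knockdown group, in replicate 2. Among the purine breakdown genes the same measure was 0.828 for Urah, 0.700 for Pnp, 0.631 for Uox, 0.622 for Xdh, -0.23 for Gda and -0.49 for Ada.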

How the data were processed

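RNA was measured in 6 mouse liver samples, 3 per group, grouped by sample title. The authors deposited whole-number read counts per library and one table of FPKM values, per the file headers. Per the submitters' processing notes, the tools were FastQC, Trim Galore, HISAT2 (2.10), HTSeq and Cufflinks (2.2.1) on GRCm38, in no stated order. Lines without a gene (9.35% to 10.6% of a library) were left out, and the line for multiply aligned reads is 0.

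The main test, checked on simulated data, was edgeR's quasi-likelihood test on group alone (edgeR 4.0.16 in R 4.3.3, filterByExpr, TMM), with Benjamini-Hochberg adjustment over 13767 genes and calls at an adjusted p under 0.05. CPM use TMM-scaled sizes, where 3 reads are 0.0699 to 0.0994 CPM, and correlations used log2 CPM with a prior count of 2. Annotation was GENCODE M21. No replicate pair agreed within sampling noise (chi-square per gene at least 50.2).

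The 7 genes and all lists were chosen with earlier results of these data known. The rule for names took the 7 genes, Atoh8, up to 4 called genes of each list or else the 2 of smallest p, and the 5 genes most like Urad with a mean of at least 1 CPM, and some genes that it takes are not reported here. Alternatives were DESeq2 size factors, other count filters, DESeq2 1.42.0, limma-voom, limma 3.58.1 on log2(FPKM + 1) or log2(FPKM + 0.1) above 0.5 FPKM in 3 libraries, a replicate block, mitochondrial and the 20 most abundant genes removed, each library left out, and, added after seeing the data, a GC and length offset (loess span 0.3).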

Additional observations from a re-analysis of the deposited data

How the results depend on the processing

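All 119 alternative values of the 7 purine breakdown genes kept their direction, 104 of them on the same side of the threshold. The 102 higher and 17 lower genes became 213 and 34 with no filter, 590 and 221 by DESeq2, 2576 and 2512 by limma-voom and 366 and 161 with a GC and length offset. They became 2150 and 2036 with that offset and without WT replicate 1, and 27 were lower on log2(FPKM + 1). Leaving out each library in turn gave 0 to 2348 higher and 0 to 2284 lower genes. The highest counts came without WT replicate 1, and the other fits gave at most 20 higher and 1 lower. With each library left out in turn, log2 fold changes were -1.76 to -1.40 for Urad, -0.94 to -0.55 for Uox, -0.46 to -0.28 for Pnp and -1.19 to -0.21 for Gda. Limma-voom also called Uox (-1.01), Pnp (-0.48) and Gda (-1.14) lower, as did the offset without WT replicate 1 (-0.70, -0.42 and -0.91). The cause of these shifts was not tested.

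With the replicate number as a block there were 33 higher and 2 lower genes, and Urad was at -1.61 (edgeR adjusted p = 0.0803). Neither the labels nor the libraries settle whether the numbers pair the samples. Deviations of same-numbered libraries from their group means had correlations of 0.253, -0.082 and 0.290. Knockdown replicates 1 and 3 correlated best with the WT library of their own number, and knockdown replicate 2 with WT replicate 1 (0.104). With 3 libraries per group the deviations depend on each other, so these values cannot decide it.

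In the neighbouring lists 0 genes were called by the main test with all libraries, beside 0.864% of all genes tested. Leaving out one library gave 0 to 4 higher of the other catabolic enzymes, 0 to 1 higher and 0 to 4 lower of salvage, 0 to 1 and 0 to 2 of synthesis, 0 to 2 and 0 to 2 of transporters, 0 to 1 and 0 to 3 of molybdenum, 0 to 3 lower of peroxisome, and 0 to 2 and 0 to 5 of pyrimidine genes. Limma-voom gave 3 higher, 1 and 6, 1 and 3, 2 and 2, 1 and 4, 4 lower, and 2 and 6 in that order. The offset without WT replicate 1 gave 3 higher, 1 and 3, 4 and 3, 3 and 3, 3 lower, 3 lower, and 2 and 4. DESeq2 called 1 higher and 1 lower of salvage and 1 lower each of molybdenum and pyrimidine genes, and the offset with all libraries 1 lower each of salvage and molybdenum genes. The counts over all genes under the same settings are given above. Depth limits Ada, at 30 to 75 reads per library, and genes with under 3 reads.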

Other observations

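Pyrimidine breakdown, the parallel pathway that was not described above, had 10 genes tested and 0 called by edgeR with all libraries (4 lower at an unadjusted p under 0.05, 1 lower by DESeq2, 2 higher and 6 lower by limma-voom), with a median log2 fold change of -0.50. At that unadjusted threshold the share was 40%, beside 28.6% of the 7 purine breakdown genes and 14.5% of all genes tested. Upp2, a liver uridine phosphorylase, stood at 90.1, 195 and 106 CPM in knockdown replicates 1 to 3, against 395, 450 and 245 CPM in WT replicates 1 to 3, so the groups did not overlap (log2 fold change -1.48, SE 0.36, edgeR adjusted p = 0.135). Upb1, which acts last in the pathway, stood at 223 ± 46.3 CPM in knockdown and 399 ± 92.5 CPM in WT livers (SD, n = 3 each, edgeR adjusted p = 0.190). With WT replicate 1 left out, 5 of these 10 genes were called lower, Upp2 and Upb1 among them (edgeR adjusted p = 0.00891 and 0.023), and 2 higher, beside 16.1% and 16.5% of all genes tested.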
